A study of Homo sapiens with 4 samples.

Results

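The tumour necrosis factor (TNF) family genes described here were the rows of the count table whose names begin with TNFSF (ligands), TNFRSF (receptors) or TRAF (adapters) followed by a number and optional letters, without a hyphen. This pattern took 35 of 35767 rows: 9 ligand genes, 19 receptor genes and 7 TRAF genes, all of them protein coding in GENCODE 29. Expression was measured by RNA sequencing in SAS cells, a line from a human tongue squamous cell carcinoma. By the sample titles, cells of 2 libraries labelled siNAT10 had received an siRNA against NAT10, the acetyltransferase that makes acetylcytidine in RNA. Those of 2 libraries labelled siControl had received a control siRNA. The genotype label of siNAT10 replicate 2 differs from its title, as given below. No dose, duration or transfection reagent was given in the sources used here. The sample titles call the libraries biological replicates, but no separate cultures are named, so the p-values reflect the spread among these 4 libraries, which may be technical.

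Ligands of this family are trimeric cell surface or secreted proteins, and each binds receptors with cysteine-rich outer repeats. Receptors with a death domain can start apoptosis through FADD and caspase 8. Receptors without it recruit TRAF proteins, which lead to NF-kB and kinase signalling. Decoy receptors bind a ligand and pass no death signal on. In squamous carcinoma cells the family is best known for the death receptors of TRAIL and for the NF-kB response to TNF.

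Total counts were 35896415 and 30794757 in the libraries labelled siNAT10 and 36341785 and 36068532 in the siControl libraries. Scaled to these totals, 3 counts corresponded to between 0.0825 and 0.0974 CPM (counts scaled to library size). All other CPM values use the totals multiplied by TMM scaling factors. These sizes were 34604092 and 29513947 in the libraries labelled siNAT10, and 38078943 and 37118072 in siControl. NAT10 itself (chromosome 11, 34105602 to 34147670, GRCh38) had 253 and 248 CPM in the libraries labelled siNAT10, against 240.4 and 231 CPM in siControl. The difference was 0.09 ± 0.06 on the log2 scale (SE, edgeR adjusted p = 0.293), so these counts do not show the knockdown named in the labels. The genotype label of siNAT10 replicate 2 names NAT11, another name of NAA40. NAA40 had 18.6 and 18.2 CPM in the libraries labelled siNAT10, against 22.1 and 18.8 CPM in siControl (log2 fold change -0.15 ± 0.10, edgeR adjusted p = 0.255). Every direction below is that of the libraries labelled siNAT10 relative to siControl. Of 8 epithelial markers all had at least 3 counts in every library, and their summed level was 3230 and 3208 CPM in the libraries labelled siNAT10, against 3149 and 3253 CPM in siControl, most of it from KRT8, KRT18 and KRT17. Others were low: KRT5 had 3 to 7 counts, TP63 14 to 36 and CDH1 23 to 48. Within this list EPCAM, KRT14 and KRT17 fell (log2 fold changes -0.99, -1.09 and -0.58, edgeR adjusted p = 4.04e-05, 2.59e-04 and 7.95e-07) and KRT8 rose (0.27, adjusted p = 1.58e-03). Of 6 T and NK cell markers 3 had a row, while CD3D, CD3E and CD2 had none. Of these 3 rows 2 had at least 3 counts in every library, as did 3 of 5 myeloid, 4 of 5 fibroblast and 2 of 4 endothelial marker rows. The myeloid marker LYZ had no row. Summed T and NK cell markers lay between 0.394 and 0.674 CPM in all 4 libraries, and the pan-leukocyte gene PTPRC had 0 to 4 counts. Summed myeloid markers were 55.2 and 55.4 CPM against 48.5 and 51.5 CPM in siControl, chiefly CD68, with FCER1G and ITGAM at no more than 2 counts. Fibroblast markers summed to 31.7 and 30.6 CPM against 34.2 and 37.7 CPM in siControl, and endothelial markers to 3.35 and 3.76 CPM against 2.52 and 3.07 CPM in siControl, with KDR at 0 to 2 counts. Both sums hold calls in opposite directions: of the fibroblast markers COL1A1 fell and PDGFRB rose by log2 fold changes of -0.42 and 0.38 (edgeR adjusted p = 1.02e-03 and 0.0313), and of the endothelial markers PECAM1 fell and VWF rose by -2.29 and 3.04 (adjusted p = 8.26e-04 and 2.31e-04), VWF having 39 and 26 counts in the libraries labelled siNAT10 and 7 and 2 counts in siControl. The part of these markers in the results was not tested. In such bulk libraries, fewer cells that express a gene and less RNA per cell cannot be told apart.

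More TNF family genes were lower than higher in the libraries labelled siNAT10. The 35 genes together took 0.0404% and 0.0396% of all counts in these libraries, against 0.0509% and 0.0512% in siControl. Of 26 members with enough counts to be tested, 10 fell, 2 rose and 14 did not pass the threshold (edgeR quasi-likelihood test, Benjamini-Hochberg adjusted over all 20098 genes tested, threshold 0.05), where 20.7% of all genes tested fell and 19.7% rose, 40.4% in all. The median log2 fold change was -0.41 over the tested members and -0.0079 over all genes tested. The levels of the groups did not overlap for 19 members that were lower and 4 that were higher in the libraries labelled siNAT10, against 35.4% and 34.1% of all genes tested. By kind, 2 of 4 tested ligands fell, 7 of 15 tested receptors fell and 2 rose, and 1 of 7 TRAFs fell. Of the 26 members, 3 (TNFRSF9, TNFRSF6B and TNFSF14) passed the filter on low counts through their siControl libraries alone. These counts and medians are therefore a description of the members that passed. Restricted to rows whose exons overlap no other row, 4 of 17 tested members fell and 2 rose, where 20.7% of such rows fell and 19.2% rose, with a member median of -0.28.

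**Figure D1:**
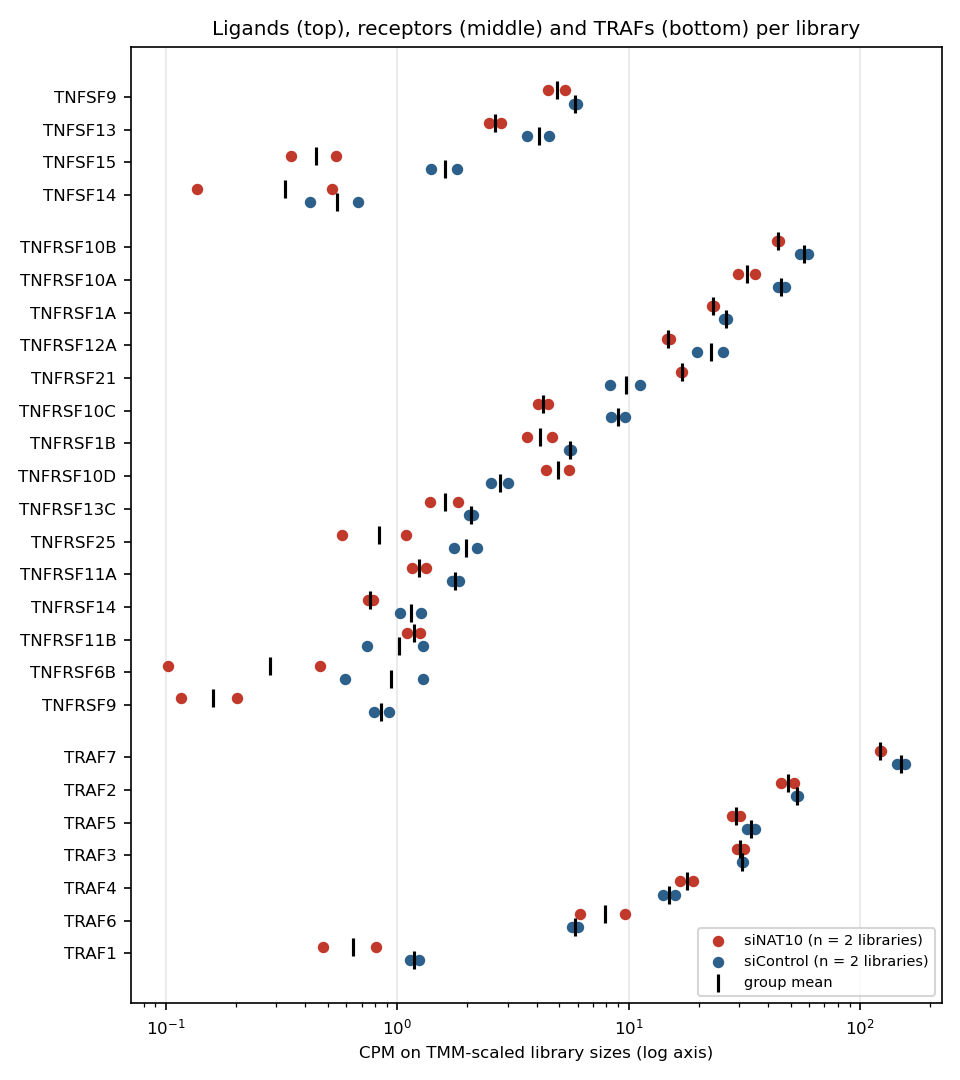
CPM on a log axis (horizontal) of the 26 tested ligand, receptor and TRAF genes (vertical), with 2 libraries labelled siNAT10 in red, 2 siControl libraries in blue and a black tick at each group mean. TRAF7 is the most abundant member at 121 to 156 CPM, and the red points lie left of the blue ones for 19 members.

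**Figure D2:**
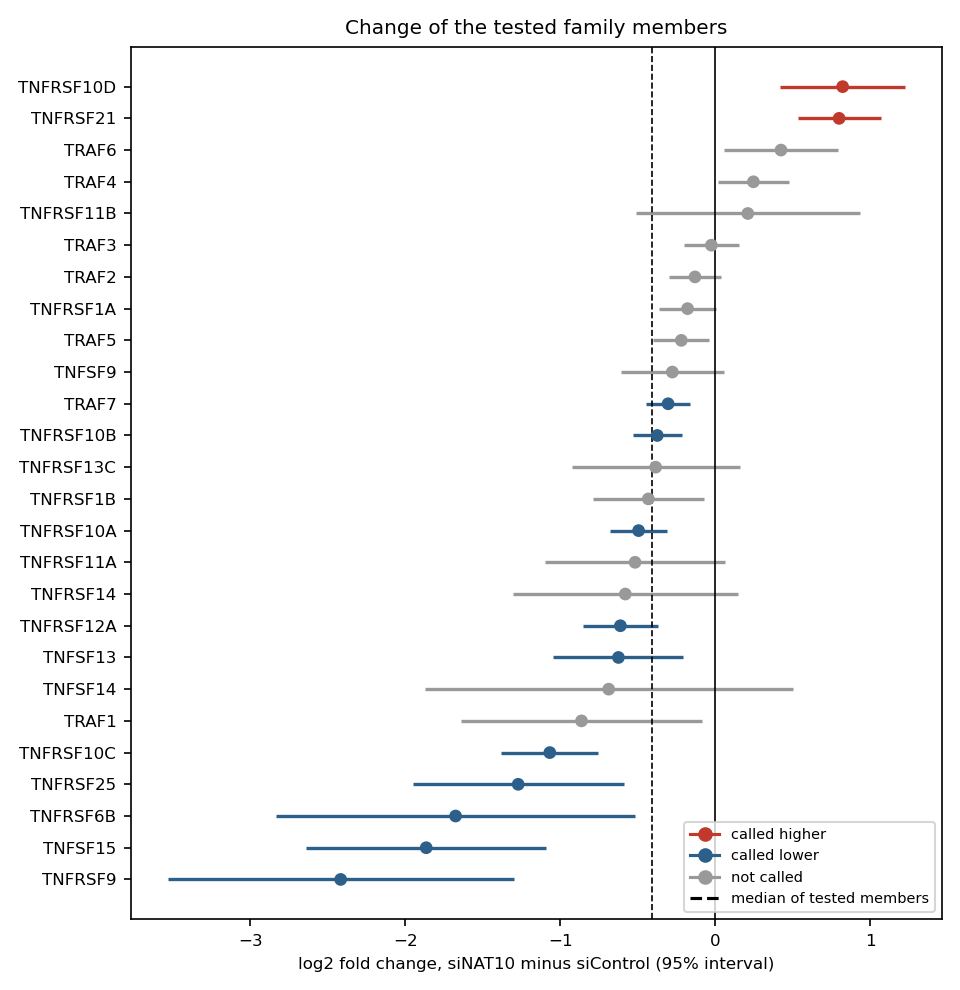
Log2 fold change (horizontal, siNAT10 minus siControl) of each tested member (vertical) with its 95% interval from the edgeR fit, red where called higher, blue where called lower and grey where not called. The dashed line is the members' median of -0.41, and the estimates run from -2.42 for TNFRSF9 to 0.82 for TNFRSF10D.

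The stretches before the transcription start of 5 called members are shown here because the genes moved in different directions and because matches to the sites of NF-kB and AP-1, which act downstream of TRAFs, could be looked for in them. They come from RefSeq (GRCh38.p14), read 5′ to 3′ on the gene's strand, and leave out bases in annotated exons of the same gene except in the 30 bases of TNFRSF9. For TNFRSF9, TNFSF15 and TNFRSF25 the start used lies inside the counted gene, whose 5′ end is at 7943165, 114806126 and 6466195. Capitals mark a match to GGGANTTNC (NF-kB) or TGANTCA (AP-1) on either strand. TNFRSF9 lies at chr1:7940894-7940923 on the minus strand, TNFSF15 at chr9:114792531-114792780 on the minus strand, TNFRSF25 at chr1:6466196-6466423 on the minus strand, TNFRSF21 at chr6:47309906-47310155 on the minus strand and TNFSF13 at chr17:7558032-7558281 on the plus strand.
TNFRSF9: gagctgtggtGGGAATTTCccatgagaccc
TNFSF15: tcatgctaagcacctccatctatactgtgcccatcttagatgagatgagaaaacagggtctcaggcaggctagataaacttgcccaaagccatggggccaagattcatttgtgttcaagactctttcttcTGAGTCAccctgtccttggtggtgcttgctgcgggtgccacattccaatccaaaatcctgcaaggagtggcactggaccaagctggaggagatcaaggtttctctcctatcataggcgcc
TNFRSF25: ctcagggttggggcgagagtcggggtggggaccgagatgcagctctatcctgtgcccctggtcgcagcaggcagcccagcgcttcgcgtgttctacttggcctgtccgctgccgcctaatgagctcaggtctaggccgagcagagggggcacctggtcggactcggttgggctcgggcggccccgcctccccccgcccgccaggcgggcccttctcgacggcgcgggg
TNFRSF21: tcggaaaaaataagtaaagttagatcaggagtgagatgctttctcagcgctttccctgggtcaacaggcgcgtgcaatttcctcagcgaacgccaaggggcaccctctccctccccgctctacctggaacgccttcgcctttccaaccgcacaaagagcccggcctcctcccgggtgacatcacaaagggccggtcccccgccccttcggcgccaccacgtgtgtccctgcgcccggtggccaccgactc
TNFSF13: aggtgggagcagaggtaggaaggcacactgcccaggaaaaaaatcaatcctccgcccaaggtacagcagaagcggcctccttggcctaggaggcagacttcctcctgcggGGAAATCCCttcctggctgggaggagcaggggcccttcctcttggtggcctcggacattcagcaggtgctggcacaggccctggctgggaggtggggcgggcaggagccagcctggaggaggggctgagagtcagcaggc

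RefSeq promoters were found for 25 of the 35 members, with 33 starts among them. None was available for the called genes TNFRSF10A, TNFRSF10B, TNFRSF10C, TNFRSF10D and TNFRSF12A. The same held for the uncalled or untested genes TNFRSF4, TNFRSF11B, TNFRSF13C, TNFSF8 and TNFSF12. The shares below do not cover these genes. Some genes have several starts with shared bases, so these promoters are not independent of each other. In the 250 bases before the start, GGGANTTNC was present in 3 of 33 promoters (9.09%, of TNFRSF9, TNFSF13 and TRAF3), against 3.96% of 35116 promoters of all genes. TGANTCA was present in 4 promoters (12.1%, of TNFRSF9, TNFSF14 and TNFSF15), against 6.57% of all. The interferon response site GAAANNGAA was present in 4 promoters (12.1%, of TNFRSF1B, TNFSF10, TNFSF13B and TNFSF9), against 6.88% of all, and TATAAA in 2 promoters (6.06%), against 10.7% of all. TGATGNAA, the site of ATF4 with its partners, was in 0 of 33, against 3.14% of all promoters. The matches in TNFSF14 are the same bases seen from 2 starts that lie 2 bases apart. A match describes letters in a window, not binding. The NF-kB and interferon site patterns were shortened after a first search of the promoters, so their shares are a description and no test. Windows also differed in base composition: the 250 bases before the start held 2 CG pairs for TNFSF15, 20 for TNFRSF21 and 26 for TNFRSF25.

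Among the ligands, TNFSF15 and TNFSF13 fell. TNFSF15 encodes TL1A, a ligand that costimulates T cells (chromosome 9, 114784635 to 114806126). It had 12 and 16 counts in the libraries labelled siNAT10 and 69 and 52 counts in siControl, which is 0.347 and 0.542 CPM against 1.81 and 1.40 CPM. The groups lay well apart at a low level (log2 fold change -1.86 ± 0.37, SE, n = 2 per group, edgeR adjusted p = 4.66e-04). TNFSF13 encodes APRIL, a ligand that supports plasma cells (chromosome 17, 7558292 to 7561608). It had 2.49 and 2.81 CPM in the libraries labelled siNAT10, against 3.62 and 4.53 CPM in siControl (log2 fold change -0.62 ± 0.20, edgeR adjusted p = 0.0178). Exons of the read-through row TNFSF12-TNFSF13 cover 55.5% of the TNFSF13 exon bases, and that row had 1.39 and 2.00 CPM in the libraries labelled siNAT10, against 2.47 and 3.04 CPM in siControl. The TNFSF13 call was lost without siNAT10 replicate 1 (edgeR adjusted p = 0.103), without siControl replicate 2 (0.174) and with DESeq2 (0.0823).

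The remaining ligands were not called or were close to the detection limit. TNFSF9, the ligand of TNFRSF9, had 4.45 and 5.29 CPM in the libraries labelled siNAT10, against 5.99 and 5.77 CPM in siControl (log2 fold change -0.28, 95% interval -0.61 to 0.06, edgeR adjusted p = 0.181). Its groups did not overlap, but the interval includes 0. TNFSF14, which encodes LIGHT, ranged from 0.136 to 0.674 CPM and its groups overlapped. Of the others, TNFSF10 (TRAIL) had 2 and 2 counts in the libraries labelled siNAT10 and 0 and 2 counts in siControl, TNFSF12 (TWEAK) 0 and 0 against 2 and 4, TNFSF13B (BAFF) 1 and 7 against 1 and 2, TNFSF4 (OX40 ligand) 2 and 2 against 5 and 6, and TNFSF8 (CD30 ligand) 0 and 0 against 2 and 0. These ligands did not pass the filter on low counts, and in a fit without that filter none of them was called.

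The receptor and the decoy receptor of TNFSF15 fell too. TNFRSF25, the death-domain receptor of TL1A (chromosome 1, 6461151 to 6466195), had 20 and 32 counts in the libraries labelled siNAT10, against 84 and 65 counts in siControl. At 0.578 and 1.08 CPM against 2.21 and 1.75 CPM, the groups did not overlap (log2 fold change -1.27 ± 0.33, edgeR adjusted p = 4.01e-03). Small parts of its exons overlap ESPN (4.87%) and PLEKHG5 (2.65%), which were also lower in the libraries labelled siNAT10, at means of 47.3 CPM against 88.0 CPM for ESPN and 13.2 CPM against 27.8 CPM for PLEKHG5. Per kb of exon, siControl levels were 12.2 and 13.1 CPM for ESPN, against 0.563 and 0.447 CPM for TNFRSF25. Even a short overlap can thus carry many of the TNFRSF25 counts, and the strand setting of the counting is not given. How far the TNFRSF25 fall comes from reads of these rows was not tested. The TNFRSF25 call was lost without siNAT10 replicate 1 (-0.86, edgeR adjusted p = 0.058). TNFRSF6B encodes DcR3, a soluble decoy that binds TL1A, LIGHT and FAS ligand (chromosome 20, 63696668 to 63698684). It had 16 and 3 counts in the libraries labelled siNAT10, against 49 and 22 counts in siControl. Its highest value in the libraries labelled siNAT10, 0.462 CPM, was close to its lowest siControl value, 0.593 CPM (log2 fold change -1.67 ± 0.55, edgeR adjusted p = 0.0208). All of its exon bases lie in the read-through row RTEL1-TNFRSF6B, which ran the other way, with 35.9 and 34.1 CPM in the libraries labelled siNAT10 and 27.2 and 27.1 CPM in siControl. ARFRP1 on the opposite strand overlaps 3.83% of the TNFRSF6B exon bases. It had 973 and 883 counts in the libraries labelled siNAT10, against 1247 and 1404 counts in siControl. Reads of TNFRSF6B and of these rows may be mixed, which was not tested. The TNFRSF6B call was lost without siControl replicate 1 (-1.02, edgeR adjusted p = 0.299), without siNAT10 replicate 2 (-1.02, adjusted p = 0.156) and with DESeq2 (adjusted p = 0.0677), and it stood at -3.16 without siNAT10 replicate 1.

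TNFRSF9 had the most negative fold change of the members in the fit to all 4 libraries. It encodes CD137, a costimulatory receptor of activated T cells that NF-kB can induce (chromosome 1, 7915894 to 7943165). It had 4 and 6 counts in the libraries labelled siNAT10 and 30 and 34 counts in siControl, or 0.116 and 0.203 CPM against 0.788 and 0.916 CPM. The groups were well separated, yet the values labelled siNAT10 were near the 3-count floor, and the log2 fold change of -2.42 had a wide 95% interval of -3.53 to -1.30 (edgeR adjusted p = 1.21e-03). TNFRSF12A encodes Fn14, the receptor of TWEAK and a gene often high in carcinoma cells (chromosome 16, 3018445 to 3022383). It had 15.1 and 14.6 CPM in the libraries labelled siNAT10, against 19.7 and 25.6 CPM in siControl. The siControl libraries differed from each other more than those labelled siNAT10 did, and all values labelled siNAT10 were lower than both (log2 fold change -0.61 ± 0.12, edgeR adjusted p = 2.90e-04).

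Among the TRAIL receptors, both death receptors and the decoy TNFRSF10C fell while the decoy TNFRSF10D rose. These genes lie side by side on chromosome 8 (23020133 to 23225126 from TNFRSF10B to TNFRSF10A) and are close paralogs, so reads may have been split between them with some error. TNFRSF10A (TRAIL-R1, a death-domain receptor) had 35.1 and 29.6 CPM in the libraries labelled siNAT10, against 47.2 and 44.1 CPM in siControl (log2 fold change -0.49 ± 0.09, edgeR adjusted p = 1.74e-04). TNFRSF10B (TRAIL-R2, also with a death domain) had 43.6 and 44.5 CPM in the libraries labelled siNAT10, against 59.2 and 55.0 CPM in siControl (-0.37 ± 0.08, edgeR adjusted p = 5.33e-04). The groups of both death receptors were separate, and the fall was 1.41-fold and 1.30-fold. Antisense rows overlap parts of both, RP11-1149O23.2 and RP11-1149O23.3 in TNFRSF10A (7.59% and 9.01% of its exon bases, at most 85 counts each) and RHOBTB2 in TNFRSF10B (1.3%). TNFRSF10C, a decoy anchored in the membrane by a lipid, had 4.48 and 4.07 CPM in the libraries labelled siNAT10, against 9.59 and 8.35 CPM in siControl (-1.07 ± 0.15, edgeR adjusted p = 1.18e-05). TNFRSF10D, a decoy with a truncated death domain, had 4.39 and 5.49 CPM in the libraries labelled siNAT10, against 2.55 and 3.02 CPM in siControl (0.82 ± 0.19, edgeR adjusted p = 1.97e-03). The decoys thus moved in opposite directions, each without overlap of the groups. All 4 calls held in each alternative that tested them, for TNFRSF10D with an adjusted p of up to 0.0317. TNFRSF11B, osteoprotegerin, a soluble decoy of RANK ligand that can also bind TRAIL, had 38 and 37 counts in the libraries labelled siNAT10, against 28 and 48 counts in siControl, and its groups overlapped.

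Expressed per kilobase of exon, the TRAIL receptors summed to 23.7 and 22.2 CPM per kb in the libraries labelled siNAT10, against 32.1 and 30.1 CPM per kb in siControl. The death receptors made up most of the set in all libraries. TNFRSF10A took 47.7% ± 3.56 in the libraries labelled siNAT10 and 49.7% ± 0.121 in siControl, and TNFRSF10B took 37.3% ± 2.23 and 35.6% ± 0.235 (SD, n = 2 each). TNFRSF10C took 7.09% ± 0.161 in the libraries labelled siNAT10 and 11.0% ± 0.565 in siControl, and TNFRSF10D took 6.11% ± 1.23 and 2.54% ± 0.419. The ratio of TNFRSF10C to TNFRSF10D per kb, looked at after these values were seen, was 1.37 and 0.998 in the libraries labelled siNAT10 and 5.07 and 3.73 in siControl. With 2 libraries against 2, an exact permutation test of 1 such ratio cannot give a two-sided p below 0.333.

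**Figure D3:**
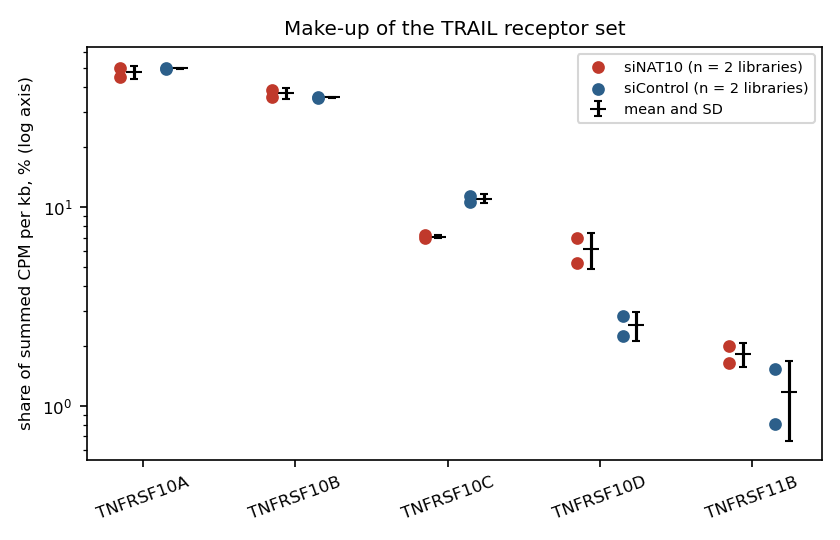
Share of each TRAIL-binding receptor in the set's summed CPM per kb (vertical, percent on a log axis) for 5 receptors (horizontal), with points for libraries, red for those labelled siNAT10 and blue for siControl, and black bars for mean and SD. TNFRSF10C lies at 7.09% against 11.0% in siControl and TNFRSF10D at 6.11% against 2.54% in siControl.

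TNFRSF21 rose. It encodes death receptor 6, which has a death domain and is known for roles in neurons and T cells (chromosome 6, 47231532 to 47309905). It had 16.8 and 17.0 CPM in the libraries labelled siNAT10, against 8.27 and 11.2 CPM in siControl (log2 fold change 0.80 ± 0.13, edgeR adjusted p = 5.01e-05). No other row overlaps its exons, and the call held in all 12 alternatives. The receptors of TNF itself did not pass the threshold. TNFRSF1A, the broadly expressed TNF receptor with a death domain, had 23.4 and 22.9 CPM in the libraries labelled siNAT10, against 26.5 and 25.9 CPM in siControl (log2 fold change -0.18, 95% interval -0.36 to 0.01, edgeR adjusted p = 0.121). TNFRSF1B, which lacks a death domain and binds TRAF2, had 3.61 and 4.68 CPM in the libraries labelled siNAT10, against 5.49 and 5.63 CPM in siControl (-0.43, 95% interval -0.79 to -0.07, edgeR adjusted p = 0.0526). The groups of each were separate, and TNFRSF1B passed in 5 of 12 alternatives, among them the fit without siNAT10 replicate 2 (adjusted p = 0.0236). Per kb, TNFRSF1A made up 84.2% ± 2.62 of both TNF receptors in the libraries labelled siNAT10 and 81.8% ± 0.534 in siControl (SD, n = 2 each).

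The other receptors were low. TNFRSF13C (the BAFF receptor), TNFRSF11A (RANK) and TNFRSF14 (HVEM, the receptor of LIGHT) had means of 1.61, 1.24 and 0.763 CPM in the libraries labelled siNAT10, against 2.09, 1.78 and 1.14 CPM in siControl. Their groups did not overlap, and their edgeR adjusted p-values were 0.256, 0.149 and 0.198. TNFRSF4 (OX40), TNFRSF8 (CD30), TNFRSF13B (TACI) and TNFRSF19 (TROY) did not pass the filter on low counts, and none of them was called without it. They had at most 12 counts in any library, the highest being TNFRSF19 with 12 and 6 counts in the libraries labelled siNAT10 and 2 and 8 counts in siControl.

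All 7 TRAF genes were tested, and TRAF7 fell. TRAF7, a ring finger and WD40 protein that lacks the TRAF domain of the other members (chromosome 16, 2155698 to 2178129), had 121 and 123 CPM in the libraries labelled siNAT10, against 145 and 156 CPM in siControl (log2 fold change -0.30 ± 0.07, edgeR adjusted p = 1.24e-03). CASKIN1 on the opposite strand overlaps 21.2% of its exon bases and had 55.9 and 58.3 CPM in the libraries labelled siNAT10, against 68.9 and 77.5 CPM in siControl. The strand setting of the counting is not given in the sources used here, so reads of TRAF7 and CASKIN1 may be mixed. TRAF2, the main adapter of the TNF receptors, had 51.8 and 45.3 CPM in the libraries labelled siNAT10, against 52.7 and 53.6 CPM in siControl (-0.13, 95% interval -0.29 to 0.04, edgeR adjusted p = 0.206). TRAF3, which holds back non-canonical NF-kB signalling, had 31.5 and 29.2 CPM in the libraries labelled siNAT10, against 30.8 and 31.0 CPM in siControl (-0.02, 95% interval -0.20 to 0.15, edgeR adjusted p = 0.851). Its groups overlapped.

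TRAF5, a relative of TRAF2, had 30.1 and 27.9 CPM in the libraries labelled siNAT10, against 35.0 and 32.5 CPM in siControl (-0.22 ± 0.09, edgeR adjusted p = 0.0507), and it passed in 6 of 12 alternatives, among them the fit without siControl replicate 2 (adjusted p = 0.0252). TRAF4 and TRAF6 had positive fold changes that missed the threshold. TRAF4, an epithelial member known from breast carcinoma, had 16.6 and 19.0 CPM in the libraries labelled siNAT10, against 14.1 and 15.9 CPM in siControl (0.25 ± 0.11, edgeR adjusted p = 0.0773). Short antisense rows with at most 78 counts overlap parts of TRAF4. TRAF6, the adapter of Toll-like and interleukin receptors, had 6.13 and 9.66 CPM in the libraries labelled siNAT10, against 6.01 and 5.66 CPM in siControl (0.43 ± 0.18, edgeR adjusted p = 0.0633). Only siNAT10 replicate 2 was high for TRAF6, and without that library its log2 fold change was 0.07 (adjusted p = 0.814). TRAF1, an NF-kB inducible member, was low, with 28 and 14 counts in the libraries labelled siNAT10 and 43 and 46 counts in siControl (-0.86 ± 0.37, edgeR adjusted p = 0.0717). Its log2 fold change was -1.31 without siNAT10 replicate 1 (adjusted p = 0.0296) and -0.55 without siNAT10 replicate 2 (adjusted p = 0.342).

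Per kilobase of exon, TRAF7 was the most abundant member, with means of 27.2 CPM per kb in the libraries labelled siNAT10 and 33.5 CPM per kb in siControl. It was followed in the libraries labelled siNAT10 by TRAF2 (13.3 CPM per kb), TNFRSF10A (11.0), TNFRSF10B (8.55) and TNFRSF12A (8.02). In siControl the order was TNFRSF10A (15.5 CPM per kb), TRAF2 (14.5), TNFRSF12A (12.3) and TNFRSF10B (11.1), and no test compared levels between genes. Within the TRAF set, TRAF7 took 51.4% ± 0.937 of the summed level per kb in the libraries labelled siNAT10 and 55.7% ± 1.14 in siControl, and TRAF2 took 25.0% ± 2.09 and 24.1% ± 0.548 (SD, n = 2 each).

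Family members that carry other names showed no call. Of 6 such ligand rows, TNF had 0 and 0 counts in the libraries labelled siNAT10 and 0 and 2 counts in siControl, and only CD70 and EDA were tested. They had edgeR adjusted p-values of 0.749 and 0.991. Of 8 receptor rows 5 were tested, and 0 were called at the adjusted threshold or at an unadjusted p under 0.05, and also 0 by DESeq2. Over all genes tested, edgeR called 40.4% and DESeq2 31.1%, and 9606 of 20098 had an unadjusted edgeR p under 0.05. With so few rows tested, the absence of a call is a description only. The pair with the largest change, CD27 and NGFR, had log2 fold changes of -0.79 (edgeR adjusted p = 0.129) and 0.21 (adjusted p = 0.785), both below 1 CPM. The other 3 tested, LTBR, RELT and FAS, named after the values were seen, had log2 fold changes of -0.08, 0.05 and -0.19.

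Genes that act with these receptors were counted in lists by role, each to be read beside the 20.7% of all genes tested that fell and the 19.7% that rose. Of 13 tested adapters and death machinery genes 6 fell and 2 rose, with a median log2 fold change of -0.24, whereas DESeq2 called 4 lower and 0 higher. The death adapter gene FADD had 39.6 and 35.6 CPM in the libraries labelled siNAT10, against 55.9 and 65.3 CPM in siControl (-0.69 ± 0.09, edgeR adjusted p = 3.08e-06), and RIPK1 and MLKL, kinase and pore protein of regulated necrosis, fell by 0.43 and 0.41 on the log2 scale. TIFA, a TRAF6-binding adapter, fell by 0.66, and FADD, RIPK1 and TIFA overlap other rows. The genes that rose, named after their values were seen, were EDARADD (1.24 ± 0.38, edgeR adjusted p = 0.0137), the adapter of the ectodysplasin receptor, which also overlaps another row, and TRAIP (0.28 ± 0.10, adjusted p = 0.0320), a TRAF-interacting protein. Of 15 tested TRAF-linked ubiquitin ligases and deubiquitinases 8 fell and 3 rose, with a median of -0.28, and DESeq2 called 7 lower and 1 higher. RBCK1, a subunit of the linear ubiquitin ligase, had 29.3 and 29.6 CPM in the libraries labelled siNAT10, against 60.5 and 68.9 CPM in siControl (-1.13 ± 0.08, edgeR adjusted p = 2.19e-09), while RNF31, the catalytic subunit of the same ligase, named after its value was seen, rose by 0.35 ± 0.11 (edgeR adjusted p = 0.0152). BIRC3, a ligase bound to TRAF2, fell by 0.81, and the NF-kB brakes TNIP1 and TNFAIP3 fell by 0.44 and 0.54 on the log2 scale. RNF31 and TNFAIP3 overlap other rows in their exons.

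Against the same shares of 20.7% and 19.7% of all genes tested, the genes of kinases and their partners, NF-kB genes and TNF-responsive genes gave these counts. Of 11 tested genes of kinases and their partner proteins between TRAFs and NF-kB 1 fell, and the list median was 0.00078. The gene that fell, TAB2 (-0.35 ± 0.07, edgeR adjusted p = 8.55e-04), encodes a partner protein and no kinase. Of 10 NF-kB subunits and inhibitors 8 fell, with a median of -0.39. NFKBIA, the inhibitor that NF-kB itself induces, had 21.9 and 17.1 CPM in the libraries labelled siNAT10, against 36.8 and 38.7 CPM in siControl (-0.95 ± 0.10, edgeR adjusted p = 5.06e-07), and the subunit genes RELB, NFKB2 and RELA fell by 0.85, 0.48 and 0.40 on the log2 scale. Of 15 tested TNF-responsive genes 11 fell and 1 rose, with a median of -1.05. Among those that fell, CXCL10, CXCL8 and MMP9 passed the filter on low counts through their siControl libraries alone. In the libraries labelled siNAT10 they had 0 and 3, 5 and 4, and 4 and 5 counts. This count and median therefore describe only the genes that passed. The chemokine gene CCL5 had 0.925 and 1.36 CPM in the libraries labelled siNAT10, against 12.6 and 12.2 CPM in siControl (-3.45 ± 0.18, edgeR adjusted p = 3.43e-11), and IRF1 and TNFAIP2 fell by 1.05 and 0.69 on the log2 scale. The adhesion gene ICAM1, chosen here after its value was seen, rose by 0.40 ± 0.08 (edgeR adjusted p = 7.23e-04), and both ICAM1 and IRF1 overlap other rows. Many of these genes respond to other signals too, and no list was compared with other lists by a test.

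**Figure D4:**
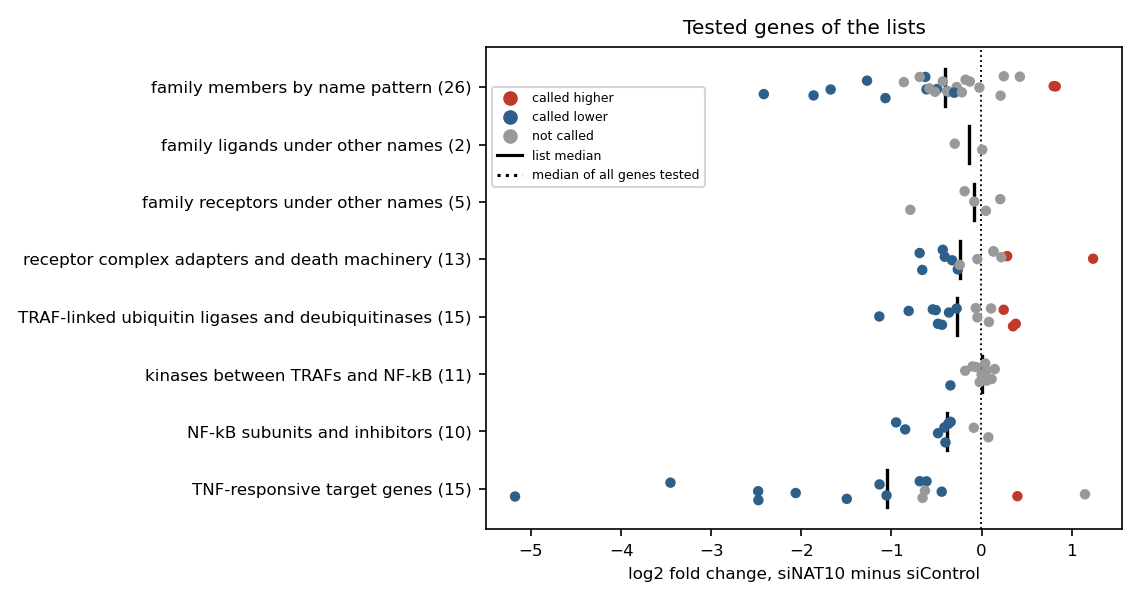
Log2 fold change (horizontal, siNAT10 minus siControl) of tested genes in the family and in 7 related lists (vertical, tested genes in brackets), red where called higher, blue where called lower and grey where not called, with black bars at list medians and a dotted line at the median of all genes tested. The list of kinases and their partner proteins lies around 0 with a median of 0.00078, whereas the TNF-responsive genes that passed the filter have a median of -1.05.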

How the data were processed

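TRIzol extraction and the KC Digital mRNA library kit are named in the labels' protocols. The submitters' processing notes list fastp 0.23.4, STAR 2.5.3a, featureCounts and GRCh38 for the authors' work. What each tool did, the annotation release, the strand setting and any removal of PCR copies were not stated there. The authors deposited raw counts, in 1 table with 0 columns that lack a sample. Of counts from 1 to 50, between 72.0% and 73.5% were even, as when mates are counted separately. Reads in overlapping exons can count for several rows.

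The edgeR 4.0.16 quasi-likelihood test (R 4.3.3, robust) was run on these counts with group as the only term, filterByExpr by group and TMM factors, after a check on simulated counts. P-values were two-sided and adjusted over 20098 genes by Benjamini-Hochberg. CPM use TMM-scaled library sizes, and exon length comes from the deposited table. Within a group, library pairs differed beyond sampling noise (chi-square over degrees of freedom 4.77 for siNAT10, 7.94 for siControl), so each library counted as 1. DESeq2 1.42.0 and 11 other alternatives were tried. Of the 35 members, 31 have the same start and end in GENCODE 29. Intervals cover counting error and library spread, not PCR copies.

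The members and lists were chosen with earlier results of these data known. Called members and members with at least 5 CPM in either group are named with their values, and up to 4 called genes of each list. The NF-kB and interferon site patterns were shortened by 1 letter after a first search of the promoters. The B cell marker list is not reported here.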

Additional observations from a re-analysis of the deposited data

How the results depend on the processing

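Of the 12 called members, 9 kept direction and call in every alternative that tested them; TNFRSF25, TNFRSF6B and TNFSF13 did not, as given above. Over the fits that left out 1 library each, the member median ran from -0.41 to -0.322 and that of all genes tested from -0.0217 to 0.00432. Without siNAT10 replicate 1, the log2 fold changes of TRAF4 and TRAF6 were 0.349 and 0.731. Over the same fits, the NAT10 log2 fold change ran from 0.0586 to 0.116. In the fit to all 4 libraries, 34 of 71 tested related genes fell and 6 rose. Scaled by library totals alone, the median gene stood at -0.12, 15 members fell and 2 rose, where 27.9% of all genes fell and 13.4% rose, NAT10 turned to -0.0242 (adjusted p = 0.798), and 2 related genes rose; DESeq2 also called 2 of these higher. On rows without exon overlap, an alternative chosen after the data were seen, fewer genes were tested: 1893 of all genes rose and 2044 fell, 4 members fell, and 1 related gene rose and 19 fell. With 1 library left out, the uncalled TRAF3 ran from -0.0738 to 0.0297 and TNFRSF11B from -0.142 to 0.671. Of the 14 uncalled members, 7 passed in at least 1 alternative. With the replicate block, 11 of 26 tested members fell and 3 rose, where 4257 of 20098 genes tested fell and 3997 rose. TNFRSF1B (edgeR adjusted p = 0.0333) and TRAF6 (0.0206) were added. Deviations of same-numbered libraries correlated at -0.0189, so the numbers were not taken as pairs. The cause of these changes was not tested, apart from the fewer genes or libraries. With all counts halved, 12 of 25 tested members fell and 2 rose, where 4114 of 18078 genes tested fell and 3929 rose. TNFRSF9 (edgeR adjusted p = 1.04e-03), TNFSF15 (4.40e-04) and TNFRSF6B (0.0192) stayed called. Halving reuses the counts of the same libraries, so it cannot show whether calls at such low counts are reliable.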
